A study of Mus musculus with 12 samples.

Results

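The genes described here encode the nuclear-encoded proteins of oxidative phosphorylation, the chain of mitochondrial complexes that turns nutrients and oxygen into ATP. They were chosen by symbol: every probe set with exactly 1 gene symbol that starts with Nduf, Uqcr or Atp5, or with Cox and a digit from 4 to 8, or that is Sdha, Sdhb, Sdhc or Sdhd. This gave 114 probe sets of 89 genes, of 19938 genes measured in all, and each gene is represented by the probe set with the highest mean over the 12 arrays. By known role, 41 of the genes belong to complex I, 4 to complex II, 8 to complex III, 19 to complex IV and 17 to complex V. The choice by symbol is not purely one of subunits: 73 are structural subunits, 7 are complex I assembly factors and 9 are tissue isoforms or relatives of complex IV subunits. Ndufa4, first described with complex I, is counted here under complex IV, where it is known to reside. Ndufb1, Ndufb4, Ndufaf8 and Cox7c were not analysed here.

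RNA came from mouse renal cortex, in 4 groups of 3 arrays. All mice carried nr3c1 flox/flox alleles, in which the gene of the glucocorticoid receptor (GR) is flanked by sites for Cre recombinase. Control mice had these alleles alone, and GR-deficient mice also had Pax8-Cre, which is active in the tubular epithelium, so a difference between genotypes includes any effect of Cre itself, and cells outside the tubule keep the receptor. Each genotype was studied healthy (not injected, a second cohort) or with acute kidney injury (AKI) 24 hours after glycerol was given intramuscularly, so that muscle breakdown floods the kidney with myoglobin. An AKI difference therefore also holds any difference between the cohorts. The labels give no ages and do not state that replicates are separate animals, so the spread behind the p-values could be technical in part or whole.

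Complex I takes electrons from NADH and complex II, which is also succinate dehydrogenase of the tricarboxylic acid cycle, takes them from succinate. Complexes III and IV hand them on through cytochrome c to oxygen, and complex V, the ATP synthase, uses the proton gradient built on the way. Proximal tubule cells of the cortex are rich in mitochondria and depend on this pathway to power reabsorption.

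On these arrays the pathway stood high: 78 of the 89 genes lay in the top 25% of all genes by mean level. The array medians over all genes lay between 7.001 and 7.092 on the deposited log2 scale, on which all levels and differences below are given. Nr3c1 was lower on all 6 GR-deficient arrays (7.87 to 8.21) than on any control array (8.82 to 9.65). On control AKI replicate 1 the spread over genes was narrower (SD 1.88) than on the other 11 arrays (1.96 to 2.06). GR-deficient healthy replicate 1 had the next narrowest spread. Summed up as means of the lists, markers of proximal tubule lay at 12.73 to 12.83 on the healthy control arrays. No list of medullary markers was examined, so this does not test the label of cortex. Precision is limited by there being 3 arrays a group.

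The first comparison asked what AKI did in control mice. The oxidative phosphorylation genes fell as a body: 63 of the 89 were lower at an adjusted p under 0.05 (limma, 3 arrays against 3, Benjamini-Hochberg over all 19938 genes) and 0 were higher. Over all genes, 15.1% passed as lower, 13.6% as higher, and in the top 25% of genes by level 32% passed as lower. Their median difference was -0.475, or 1.39-fold lower, against 0.00 for all genes. All 3 AKI arrays lay below all 3 healthy arrays for 77 members and above them for 0, where the shares over all genes were 20.4% and 19.3%. Only Cox7a1 and Ndufs1 fell at least 2-fold, so the shift was broad and mostly modest in size. Per array, the median over members stood 0.57, 0.46 and 0.42 below the healthy control mean in control mice with AKI. Leaving out any 1 array gave between 56 and 67 calls.

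**Figure D1:**
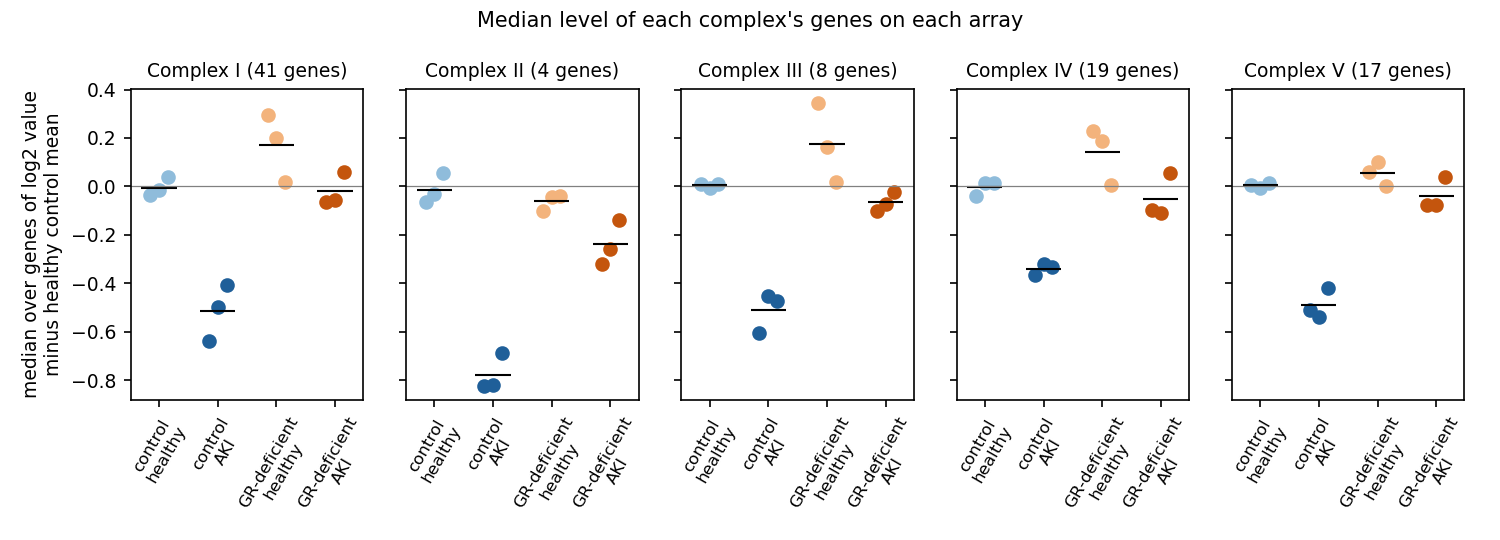
Median over the genes of each complex, per array, of the log2 value minus the gene's healthy control mean; points are arrays and lines are group means of 3 arrays. The control AKI arrays lie lowest in all 5 complexes, and the GR-deficient AKI arrays lie above them; in complex II these stay 0.14 to 0.32 below the healthy control mean.

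Complex I is the largest of the chain, and 27 of its 41 genes fell (median -0.48). Its 6 measured core subunits, of the part that carries the flavin and iron-sulfur clusters leading electrons from NADH to ubiquinone, all fell, with a median of -0.65. Ndufs1, the largest subunit of the electron path, had log2 levels of 10.95, 10.85 and 10.95 in healthy control mice and 9.56, 9.83 and 10.09 in control mice with AKI. The 2 groups are far apart and the fall came to 1.09 ± 0.133 (SE), or 2.13-fold (adjusted p = 1.75e-05). Ndufs8 and Ndufs7 carry iron-sulfur clusters near the ubiquinone site. Ndufs8 fell from 11.40, 11.43 and 11.35 to 10.67, 10.52 and 10.74, a difference of -0.75 ± 0.0997 (adjusted p = 3.96e-05). Ndufs7 fell from 11.77, 11.85 and 11.93 to 11.16, 11.01 and 11.48, a difference of -0.64 ± 0.131 (adjusted p = 0.00164). Ndufs3, a core subunit of the peripheral arm, fell by 0.67 ± 0.096 (adjusted p = 7.76e-05).

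Accessory subunits surround the core and do not carry electrons. Of these, 19 of 28 fell, with a median of -0.48. Ndufv3, which sits on the NADH-oxidising tip, fell from 10.80, 10.55 and 10.69 to 9.58, 9.60 and 9.91 (-0.99 ± 0.118, adjusted p = 1.51e-05). Ndufab1, the mitochondrial acyl carrier protein, fell from 11.13, 11.18 and 11.18 to 10.19, 10.39 and 10.68 (-0.74 ± 0.116). Ndufc1, of the membrane arm, fell by 0.73 ± 0.111 and Ndufb5 by 0.76 ± 0.131. Ndufa7 was the accessory subunit that moved least: its arrays overlapped and the difference was -0.06 ± 0.13. Ndufc2 also did not pass, with 11.19, 11.21 and 11.66 against 11.14, 10.92 and 11.16. Ndufb11 fell by 0.57 ± 0.168 (adjusted p = 0.0191), a call lost without control AKI replicate 1 or without control healthy replicate 2 (adjusted p up to 0.0727).

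The 7 assembly factors, which help to build complex I but are not part of it, had a median of -0.19 and 2 of them fell. Ndufaf3 fell from 9.04, 9.12 and 9.25 to 8.42, 8.34 and 8.68 (-0.66 ± 0.122, adjusted p = 0.000714). Ndufaf6 also fell (-0.43, adjusted p = 0.025), a call lost without either control AKI replicate 1 or 2 or control healthy replicate 1 or 3 (adjusted p up to 0.107). Ndufaf5 had nearly the same mean in both groups (-0.02 ± 0.146), with control AKI arrays at 6.34, 6.87 and 6.97 around the healthy ones at 6.74, 6.64 and 6.87. No test compared assembly factors with subunits.

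All 4 complex II genes fell, with the lowest median of the 5 complexes (-0.81, or 1.75-fold lower); the complexes were not tested against each other. Sdha, the flavoprotein that oxidises succinate, had levels of 12.18, 12.09 and 12.18 in healthy control mice and 11.02, 11.35 and 11.44 with AKI. Its difference was -0.88 ± 0.114 (adjusted p = 3.08e-05). Sdhb, the iron-sulfur subunit, fell from 11.91, 12.01 and 12.01 to 11.20, 11.13 and 11.29 (-0.77 ± 0.0973, adjusted p = 2.47e-05). The membrane anchors that bind ubiquinone followed. Sdhc fell from 12.05, 12.13 and 12.21 to 11.26, 11.13 and 11.43 (-0.85 ± 0.141), and Sdhd from 11.62, 11.59 and 11.85 to 11.11, 10.91 and 11.24 (-0.60 ± 0.108). In each of these 4 genes the lowest healthy array lay above the highest AKI array.

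Of the 8 complex III genes 7 fell (median -0.51). Uqcrfs1, the Rieske iron-sulfur protein, fell from 10.65, 10.44 and 10.72 to 9.68, 9.83 and 10.03 (-0.76 ± 0.112, adjusted p = 0.000104). Uqcrc2, a core protein, fell by 0.65 ± 0.0987, Uqcrb, a ubiquinone-binding subunit, by 0.66 ± 0.121, and Uqcrh, the hinge protein next to cytochrome c1, by 0.50 ± 0.109. Uqcrq was the one subunit that did not pass, at 10.66, 10.85 and 10.74 against 10.57, 10.74 and 10.55. The calls of Uqcr10 (adjusted p = 0.0485) and Uqcr11 (adjusted p = 0.0125) were each lost without control healthy replicate 2, and that of Uqcr10 also on leaving out 8 other arrays singly.

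Complex IV, cytochrome c oxidase, is the complex whose genes come in tissue isoforms, and the counts differed along that line, with no test between them. Of its 10 main subunits 9 fell (median -0.41), while of the 9 other isoforms and relatives 1 fell (median -0.09). Cox6c fell by 0.56 ± 0.103, Cox7a2 by 0.55 ± 0.115, Cox7b by 0.52 ± 0.11 and Cox6b1 by 0.49 ± 0.102. Cox4i1, which most tissues use, narrowly missed the threshold (-0.37 ± 0.133, adjusted p = 0.0528) though its healthy arrays (11.63, 11.72 and 11.67) all lay above its AKI arrays (11.28, 11.38 and 11.26). Ndufa4 fell by 0.43 ± 0.105. The call of Cox5b (-0.35) was the least stable of these. It was lost on leaving out any single control AKI or control healthy array, and with a replicate block (adjusted p up to 0.105). The calls of Cox6a1 (-0.36) and Cox8a (-0.39) rested on 1 array each: without control AKI replicate 2 the adjusted p of Cox6a1 was 0.0505, and without control healthy replicate 3 that of Cox8a was 0.0648.

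The exception among the isoforms was Cox7a1, the form of subunit VIIa known from heart and skeletal muscle, which showed the largest difference of all 89 genes. Its levels were 9.33, 9.55 and 9.19 in healthy control mice and 7.50, 7.49 and 7.74 in control mice with AKI. The difference was -1.78 ± 0.16, or 3.43-fold lower, with an adjusted p of 1.06e-06 and a 95% interval of -2.12 to -1.44. For Cox7a2, the form of subunit VIIa found in most tissues, the interval was -0.80 to -0.31; the difference between the 2 genes was not tested. Cox7a2l, a relative that takes part in joining complexes into supercomplexes, was at -0.21 ± 0.102 and did not pass. Of 11 skeletal muscle markers measured in the same RNA, 0 passed in any comparison (1 had an unadjusted p under 0.05 in control mice with AKI), and their mean level stayed between 6.09 and 6.49 on all 12 arrays. Of 10 mural cell and fibroblast markers, 4 rose and 4 fell in control AKI, against 13.6% and 15.1% of all genes. Of 5 brown fat markers 0 passed in any comparison. Their mean was highest (6.96) on control healthy replicate 2, the healthy control array with the highest Cox7a1 (9.55). Without that array Cox7a1 still passed for AKI in control mice. Which cells hold Cox7a1 was not tested.

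The other muscle, brown fat, testis or hypoxia forms Cox4i2, Cox6a2, Cox6b2, Cox7b2, Cox8b, Cox8c and Ndufa4l2 did not pass in any comparison. Their differences in control mice with AKI ran from -0.31 to 0.13. All 7 had healthy control means of 4.38 to 7.20, and the arrays of the 2 groups overlapped in each. Background compresses differences in low genes on arrays.

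**Figure D2:**
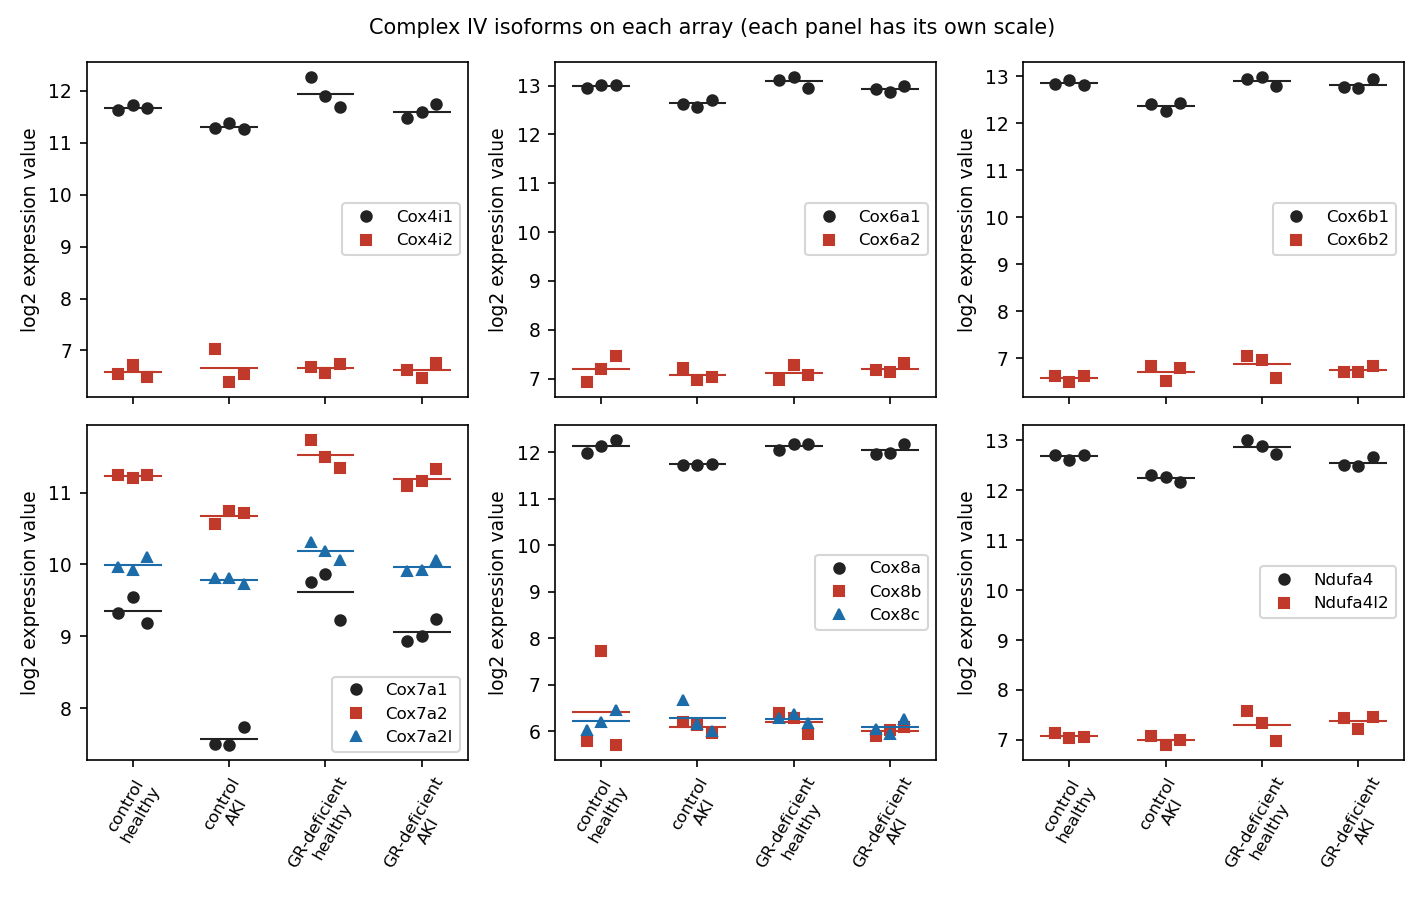
Log2 expression value on each array for groups of complex IV isoforms; points are arrays, short lines are means of 3 arrays, and levels of different genes on one axis are not comparable as amounts. Cox7a1 drops from above 9 to below 8 in control AKI. In GR-deficient AKI it lies at 8.93 to 9.23, a difference of -0.57 from GR-deficient health that did not pass. Cox4i2, Cox6a2, Cox6b2 and Cox8c, which did not pass in any comparison, have overlapping groups in control mice.

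Of the 17 complex V genes 15 fell (median -0.49), with members in each part of the enzyme. In the F1 head, where ATP is made, Atp5a1 (alpha) fell from 13.17, 13.14 and 13.12 to 12.49, 12.59 and 12.58 (-0.59 ± 0.0897, adjusted p = 0.000136), and Atp5b, the catalytic beta subunit, fell by 0.49. Atp5c1, the gamma shaft that turns inside the head, fell by 0.61 ± 0.0981. Atp5g1, Atp5g2 and Atp5g3 encode the same mature c ring protein. Atp5g1 fell from 12.51, 12.53 and 12.53 to 11.92, 11.79 and 12.04 (-0.60 ± 0.107) and Atp5g3 by 0.58 ± 0.0979. Atp5g2 fell by 0.33, but not without control AKI replicate 2 or without control healthy replicate 2 or 3 (adjusted p up to 0.0901). All 4 peripheral stalk genes fell, led by Atp5pb, the b subunit (12.27, 12.15 and 12.23 to 11.31, 11.46 and 11.71, -0.73 ± 0.109). The 2 genes that did not pass were Atp5k, subunit e of the membrane part (-0.27 ± 0.126), and Atp5e, the epsilon subunit of the head (-0.38, adjusted p = 0.0644).

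A further 25 single-symbol probe sets were available for 17 of the genes. For AKI in control mice all 25 had the sign of the probe set kept, and 21 passed as lower (adjusted over all 35556 probe sets). In the comparison of genotypes with AKI, 19 of the 25 passed as higher. For the difference in response between genotypes, 2 of the 25 passed (of Atp5g1 and Ndufab1) and 3 had the opposite sign to the probe set kept.

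**Figure D3:**
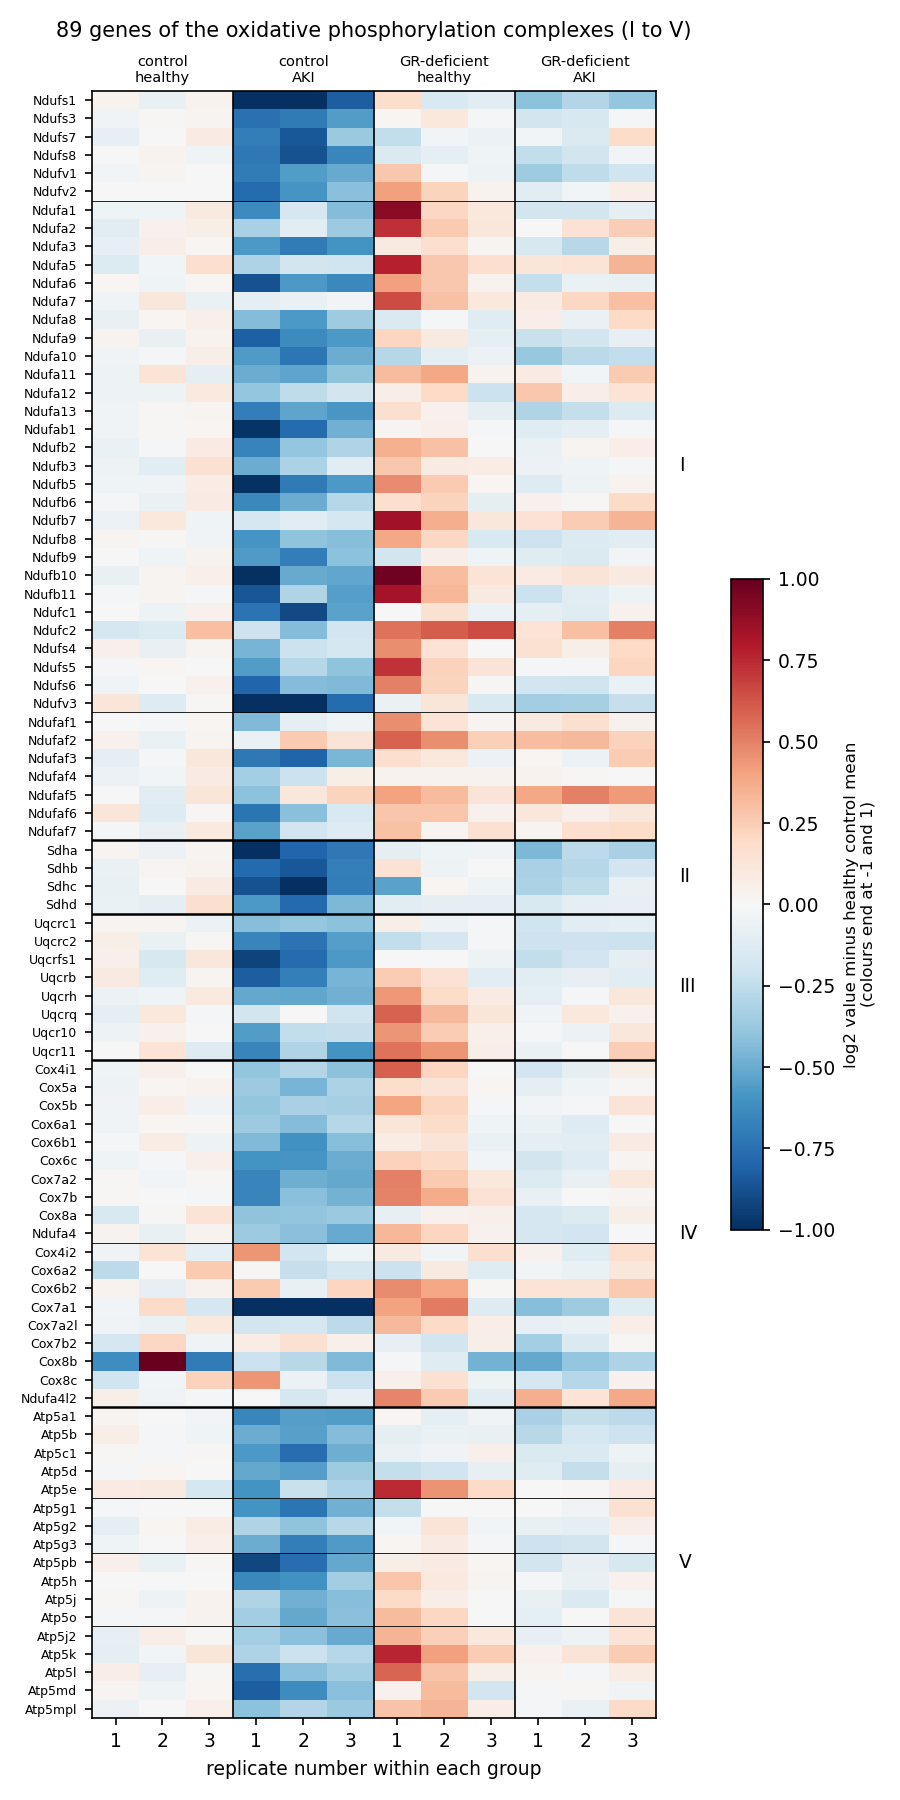
Each row is 1 of the 89 genes and each column 1 array; colour is the log2 value minus the healthy control mean, with thick lines between complexes and thin lines between roles. Control AKI columns are blue in nearly every row outside the complex IV isoforms, and on GR-deficient healthy replicate 1 many accessory subunits are red.

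Since these genes moved together, their promoters were searched for motifs of factors known to drive respiratory genes. Of the 89, 73 had a promoter in the RefSeq table (GRCm38.p6; 250 bases before to 50 after a start, 78 windows). The NRF1-type motif GCATGCGC, read on either strand, was in 12 of the 73 genes (16.4%) against 824 of 27025 genes with a promoter (3.05%). The ESRR-type motif TCAAGGTCA, for oestrogen-related receptors, was in 2 of 73 (2.74%), Atp5g3 and Sdhd, against 126 genes (0.466%). Of the members with the NRF1-type motif 9 of 12 fell in control AKI, with a median of -0.43, and 45 of the 61 without it fell with a median of -0.49. A match describes letters in a window and says nothing of binding. Shown are the 250 bases before the start of the 2 motif-bearing members with the smallest p in control AKI (Sdhb at chr4:140961021-140961270, plus strand, and Ndufa6, an accessory complex I subunit, at chr15:82354292-82354541, minus strand) and of Atp5g3 (chr2:73911327-73911576, minus strand). They read 5′ to 3′, with the NRF1-type motif in capitals in Sdhb and Ndufa6 and the ESRR-type motif, on the opposite strand, in capitals in Atp5g3.
Sdhb: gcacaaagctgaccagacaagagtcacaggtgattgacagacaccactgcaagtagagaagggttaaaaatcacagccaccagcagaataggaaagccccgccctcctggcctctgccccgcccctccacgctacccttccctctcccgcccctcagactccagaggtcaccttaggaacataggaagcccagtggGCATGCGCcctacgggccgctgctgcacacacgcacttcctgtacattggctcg
Ndufa6: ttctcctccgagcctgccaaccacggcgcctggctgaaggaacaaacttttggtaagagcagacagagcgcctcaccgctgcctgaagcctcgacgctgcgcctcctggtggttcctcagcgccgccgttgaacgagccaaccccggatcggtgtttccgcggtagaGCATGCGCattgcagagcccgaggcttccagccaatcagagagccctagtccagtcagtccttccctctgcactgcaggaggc
Atp5g3: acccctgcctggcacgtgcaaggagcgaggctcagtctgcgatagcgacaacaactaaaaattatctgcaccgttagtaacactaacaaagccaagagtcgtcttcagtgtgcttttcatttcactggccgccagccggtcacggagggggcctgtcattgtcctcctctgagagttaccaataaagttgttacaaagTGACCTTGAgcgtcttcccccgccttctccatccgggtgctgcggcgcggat
The motifs start 54 (Sdhb), 83 (Ndufa6) and 52 (Atp5g3) bases before the start site. All 3 genes fell in control AKI, by 0.77, 0.70 and 0.58.

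The second comparison asked what AKI did in GR-deficient mice. Here 0 of the 89 genes passed, where 1.35% of all genes passed as lower, 3.29% as higher and 4.64% in either direction. At an unadjusted p under 0.05 in limma, 24 were lower and 0 higher, against 1527 and 2135 of all 19938 genes. The median difference was -0.168, against -0.03 for all genes, and 81 of the 89 pointed down, as did 11057 of all 19938 genes. The AKI arrays lay below the healthy ones without overlap for 27 members and above them for 0, against 12.5% and 12.8% of all genes. The smallest p values belonged to Cox7a1, Ndufb11 and Cox7b. Cox7a1 stood at 9.76, 9.87 and 9.23 in healthy and 8.93, 8.998 and 9.23 in injured GR-deficient mice (-0.57 ± 0.16, adjusted p = 0.0608). For Ndufb11 the difference was -0.54 ± 0.168 (adjusted p = 0.086) and for Cox7b -0.35 ± 0.11 (adjusted p = 0.0865). Members can therefore not be called unmoved by AKI in these mice. The count of calls rose to 8 without GR-deficient healthy replicate 3, to 3 without control AKI replicate 1 and to 20 when arrays were weighted by quality.

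The third comparison set GR-deficient against control mice, both with AKI. Oxidative phosphorylation genes were higher in GR-deficient mice: 59 of 89 passed as higher and 0 as lower, against 10% and 7.34% of all genes; in the top 25% of genes by level 22.6% passed as higher. Their median difference was 0.44 (1.36-fold), against -0.04 for all genes. Every GR-deficient array lay above every control array for 79 members and below for 1, against 17.5% and 15.3% of all genes. This comparison uses the same control AKI arrays as the first, so the 2 sets of values are not independent. The count fell to 39 without GR-deficient AKI replicate 3. That array had the lowest injured tubule marker mean of its group (8.78, against 9.57 and 9.61) and the highest members' median relative to the healthy control mean (0.04, against -0.09 and -0.08), and the part of this in the count was not tested.

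By complex, 28 of 41 complex I genes were higher, all 4 of complex II, 6 of 8 of complex III, 7 of 19 of complex IV and 14 of 17 of complex V. Cox7a1 led again, at 8.93, 8.998 and 9.23 against 7.50, 7.49 and 7.74 (1.48 ± 0.16, or 2.79-fold, adjusted p = 2.33e-05). Ndufs1 lay at 10.51, 10.63 and 10.53 in GR-deficient AKI against 9.56, 9.83 and 10.09 (0.73 ± 0.133, adjusted p = 0.00138). Ndufaf3, the assembly factor, lay at 9.16, 9.08 and 9.39 against 8.42, 8.34 and 8.68 (0.73 ± 0.122). Atp5g1, of the c ring, lay at 12.51, 12.49 and 12.67 against 11.92, 11.79 and 12.04 (0.64 ± 0.107). In all 4 of these genes the 2 groups of arrays were well separated. Ndufs8 was higher by 0.59 ± 0.0997, Ndufc1 by 0.67 ± 0.111, Ndufv3 by 0.68 ± 0.118, Ndufab1 by 0.67 ± 0.116, Atp5c1 by 0.49 ± 0.0981 and Sdhb by 0.50 ± 0.0973.

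In complex II, Sdha and Sdhb lay between control AKI and health. Sdha stood at 11.70, 11.89 and 11.83 in GR-deficient AKI, above control AKI (0.54 ± 0.114, adjusted p = 0.00405) yet below every healthy array of either genotype. Sdhc (11.81, 11.87 and 12.05) and Sdhd (11.54, 11.59 and 11.61) were higher than in control AKI by 0.64 ± 0.141 and 0.49 ± 0.108. From healthy GR-deficient mice they differed by -0.03 and -0.01, with overlapping arrays. Some members that did not pass for AKI in control mice were also higher. Of these, Ndufc2, Atp5k, Ndufa12, Ndufs4 and Ndufaf7 had every control AKI array below every healthy control array. For Ndufaf5 those arrays overlapped. Ndufc2 lay at 11.49, 11.65 and 11.85 (0.59 ± 0.137, adjusted p = 0.00719). Ndufaf5 was higher by 0.46 ± 0.146 (adjusted p = 0.0418) and Atp5k by 0.41 ± 0.126 (adjusted p = 0.0357). The calls of Ndufaf5, Atp5k and Atp5a1 (0.32 ± 0.0897) were lost without control AKI replicate 1 or 2 or GR-deficient AKI replicate 2 or 3, with adjusted p up to 0.135, 0.135 and 0.0936. Leaving out some other arrays also cost Ndufaf5 and Atp5k their calls.

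The fourth comparison set GR-deficient against control mice in health. In limma 0 of 89 members passed, against 0.145% of all genes (0.0351% as higher, 0.11% as lower). At an unadjusted p under 0.05, 20 were higher and 0 lower, against 805 and 1319 of all 19938 genes. The median difference was 0.11, against -0.01 for all genes, and 68 of 89 pointed up, as did 9512 of all 19938 genes. The groups did not overlap for 23 members that were higher and 5 that were lower, against 8.08% and 10.6% of all genes. The smallest p values were those of Ndufc2 (11.90, 11.96 and 12.003 against 11.19, 11.21 and 11.66, 0.60 ± 0.137, adjusted p = 0.125), Atp5k (9.63, 9.28 and 9.12 against 8.77, 8.84 and 8.99, 0.48 ± 0.126, adjusted p = 0.184) and Ndufaf2 (0.43 ± 0.115, adjusted p = 0.186). The 3 GR-deficient healthy arrays differed among themselves. The members' median on each stood 0.25, 0.15 and 0.01 above the healthy control mean, and without replicate 1 the median difference was 0.0714. With arrays weighted by quality 3 members passed.

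On replicate 1 of that group the roles parted. Its accessory complex I subunits stood 0.37 above the healthy control mean at the median and the membrane subunits of complex V 0.34 above, while complex II stood at -0.10 and the F1 head at -0.06. The same array had the lowest proximal tubule marker mean of the 6 healthy arrays (12.27 against 12.61 to 12.83) and the highest injured tubule mean (8.05 against 7.29 to 7.37). Cytosolic ribosomal protein genes, 61 genes listed after values had been seen, stood 0.40, 0.21 and 0.04 above the healthy control mean on GR-deficient healthy replicates 1, 2 and 3; replicate 1 was highest for both lists. In control mice with AKI these ribosomal genes went the opposite way to the members, with 43 of 61 higher (median 0.43), against 13.6% of all genes. Their part in the result was not tested.

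The fifth comparison tested whether the genotypes responded differently to AKI, as the GR-deficient response minus the control response. It passed for 21 members, all positive, against 7.39% of all genes as higher and 4.06% as lower, and 19.3% as higher in the top 25% by level. The median over members was 0.27, against -0.03 for all genes and 0.14 for the top 25% by level. The calls covered 10 of 41 genes of complex I, all 4 of complex II, 2 of 8 of complex III, 1 of 19 of complex IV (Cox7a1) and 4 of 17 of complex V. Complex I core subunits made up 4 of the 10: Ndufs1, Ndufs3, Ndufs7 and Ndufs8. Cox7a1 differed most (1.21 ± 0.227, adjusted p = 0.00306). Sdhc followed (0.83 ± 0.199, adjusted p = 0.0143), with a response of -0.03 in GR-deficient and -0.85 in control mice.

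For several of these genes the difference with AKI in GR-deficient mice was small beside that in control mice. Ndufs7 moved by 0.11 ± 0.131 there and by -0.64 in control mice (difference 0.75 ± 0.185, adjusted p = 0.0164). Ndufa8, an accessory complex I subunit, moved by 0.16 ± 0.104 and -0.46 (difference 0.61 ± 0.147, adjusted p = 0.014). Atp5g1 moved by 0.12 ± 0.107 and -0.60 (difference 0.72 ± 0.151, adjusted p = 0.00619). Uqcrc2 moved by -0.07 ± 0.0987 and -0.65 (difference 0.58 ± 0.14, adjusted p = 0.0141). Of the 19 complex IV genes 18 did not pass: Cox4i1 gave 0.02 with a 95% interval of -0.38 to 0.42, Cox7b 0.16 (-0.17 to 0.50) and Cox6b1 0.40 (0.09 to 0.71, adjusted p = 0.0933).

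This count depended on single arrays. It was 9 without GR-deficient AKI replicate 3, the array of that group with the lowest injured tubule mean, 11 without control healthy replicate 3, 12 without control AKI replicate 2 and 13 without control healthy replicate 1, and with arrays weighted by quality 37 members passed, 36 of them positive. Cox7a1, Ndufs1, Ndufs8, Ndufv3, Ndufa8, Ndufc1, Sdhc, Uqcrc2 and Atp5g1 passed under every alternative run. On their other single-symbol probe set, adjusted over all probe sets, Ndufc1 (0.61, adjusted p = 0.0834), Ndufs3 (0.50, adjusted p = 0.0574) and Atp5pb (0.45, adjusted p = 0.115) did not pass. Of the 21 members, the 12 not in that list of 9 lost the call without GR-deficient AKI replicate 3. Among these 12, only Ndufab1 and Ndufs7 kept it under every other alternative.

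**Figure D4:**
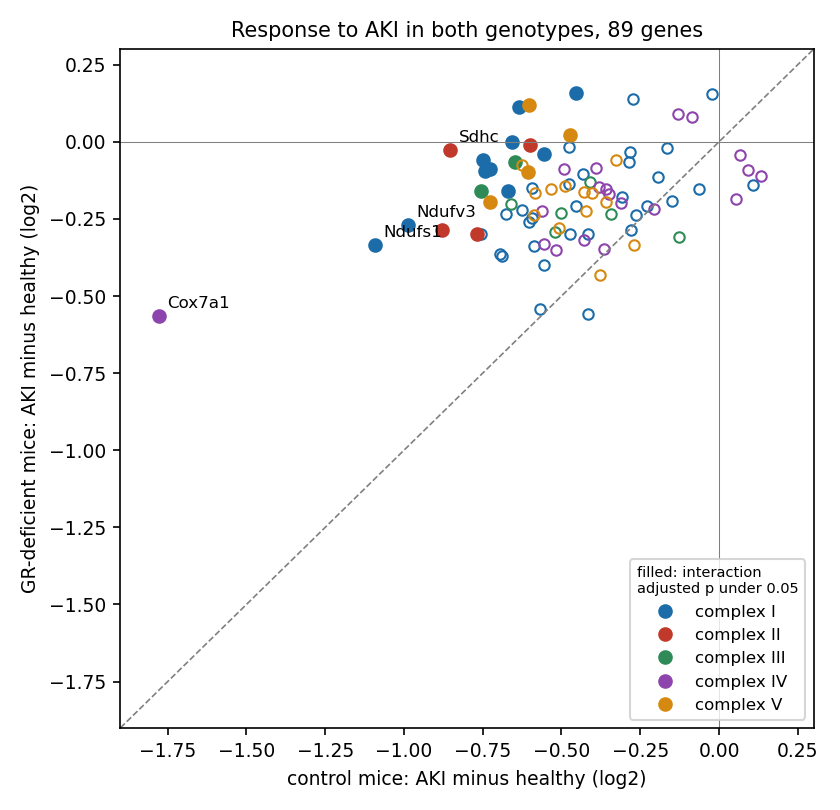
Difference between AKI and healthy mice on the log2 scale in control (x axis) and GR-deficient mice (y axis), 1 point per gene, coloured by complex; filled points passed the test of the difference and the dashed line marks equal responses. Most points lie above the line, and Cox7a1 lies farthest left, at -1.78 and -0.57.

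Partners of the respiratory chain outside the symbol rule were examined as fixed lists. Over all genes, 15.1% fell and 13.6% rose in control AKI, and 32% of the top 25% by level fell. The shares higher in GR-deficient than in control AKI were 10% of all genes and 22.6% of the top 25%. For a positive difference in response they were 7.39% and 19.3%. The list counts here and below are to be read beside these shares. Of 22 electron carriers and carriers of ADP, ATP and phosphate, 12 fell and 0 rose in control AKI (median -0.47), 9 were higher in GR-deficient than in control AKI, and 8 differed in response. Coq8a, a kinase-like protein needed to make ubiquinone, fell from 9.73, 9.59 and 9.504 to 7.85, 7.79 and 8.12 (-1.68 ± 0.135, adjusted p = 3.59e-07). In GR-deficient AKI it lay at 9.03, 9.505 and 9.41, higher by 1.39 ± 0.135 (adjusted p = 9.33e-06). Coq9, which serves the same pathway, fell by 0.98 ± 0.104, Etfb, which feeds electrons from fatty acid oxidation, by 0.92 ± 0.134, and Vdac1, the outer membrane channel, by 0.87 ± 0.104. Cyc1, the cytochrome c1 of complex III, fell by 0.56 ± 0.119 and Slc25a4, an ADP/ATP carrier, by 0.60 ± 0.115. Etfa, the partner of Etfb, was the 1 gene of this list that also fell in GR-deficient mice (-0.51 ± 0.128, adjusted p = 0.0374).

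In the tricarboxylic acid cycle, which supplies NADH and succinate, 9 of 12 genes fell in control AKI (median -0.64), 8 were higher in GR-deficient than in control AKI and 5 differed in response. Ogdh, of the oxoglutarate dehydrogenase complex, fell by 0.92 ± 0.102. The succinyl-CoA ligase subunits Suclg2 and Sucla2 fell by 0.99 ± 0.122 and 0.89 ± 0.117. Idh3b, of NAD-dependent isocitrate dehydrogenase, went from 12.58, 12.42 and 12.57 to 11.67, 11.53 and 11.90, and stood at 12.22, 12.27 and 12.36 in GR-deficient AKI. Of 35 assembly factors with other names 12 fell and 1 rose in control AKI, the former a share near that of the top 25% by level (32%). Among those that fell were the complex I factors Acad9 (-0.96 ± 0.147), Foxred1 (-0.72 ± 0.122) and Ecsit (-0.70 ± 0.131) and Cox15 (-0.81 ± 0.15), which makes heme a for complex IV. The gene that rose was Uqcc2 (0.44 ± 0.131, adjusted p = 0.0194), a complex III factor.

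Only 2 of the subunits encoded by mitochondrial DNA were measured. ND3 of complex I lay at 13.65, 13.58 and 13.62 in healthy control mice and 13.11, 13.39 and 13.43 with AKI (-0.31 ± 0.109, adjusted p = 0.0483). COX2 of complex IV lay at 13.86, 13.76 and 13.78 against 13.37, 13.72 and 13.72 (-0.20 ± 0.117, adjusted p = 0.268). Neither passed in another comparison.

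Transcriptional and mitochondrial DNA regulators did not all go one way: of 19, 8 fell and 4 rose in control AKI. Ppargc1a, which encodes PGC-1alpha, a coactivator of respiratory genes, fell from 10.46, 10.45 and 10.48 to 8.79, 8.93 and 9.18 (-1.50 ± 0.185, adjusted p = 1.98e-05). It stood at 9.79, 10.01 and 10.03 in GR-deficient AKI, above control AKI by 0.98 ± 0.185 (adjusted p = 0.00184), with a difference in response of 1.34 ± 0.262 (adjusted p = 0.00408). On GR-deficient healthy replicate 1 it lay at 9.54, against 10.36 and 10.40 on the other 2 arrays of that group. The oestrogen-related receptors Esrrg and Esrrb, which PGC-1alpha is known to activate, fell by 0.99 ± 0.142 and 0.98 ± 0.127. Esrrg was higher in GR-deficient AKI by 0.82 ± 0.142, and its difference in response was 0.98 ± 0.2.

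Pprc1, a relative of PGC-1alpha, moved the other way. It rose from 7.01, 6.99 and 6.99 to 7.97, 8.53 and 8.23 in control AKI (adjusted p = 1.1e-05) and stood at 7.77, 7.67 and 7.34 in GR-deficient AKI, lower by 0.65 ± 0.144 (adjusted p = 0.00529). Gabpb1, a subunit of nuclear respiratory factor GABP, rose by 0.53 ± 0.128, Ssbp1, which binds single-stranded mitochondrial DNA, by 0.53 ± 0.131 and Polg, its polymerase, by 0.29 ± 0.1. These lists were not set against the members by a test.

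**Figure D5:**
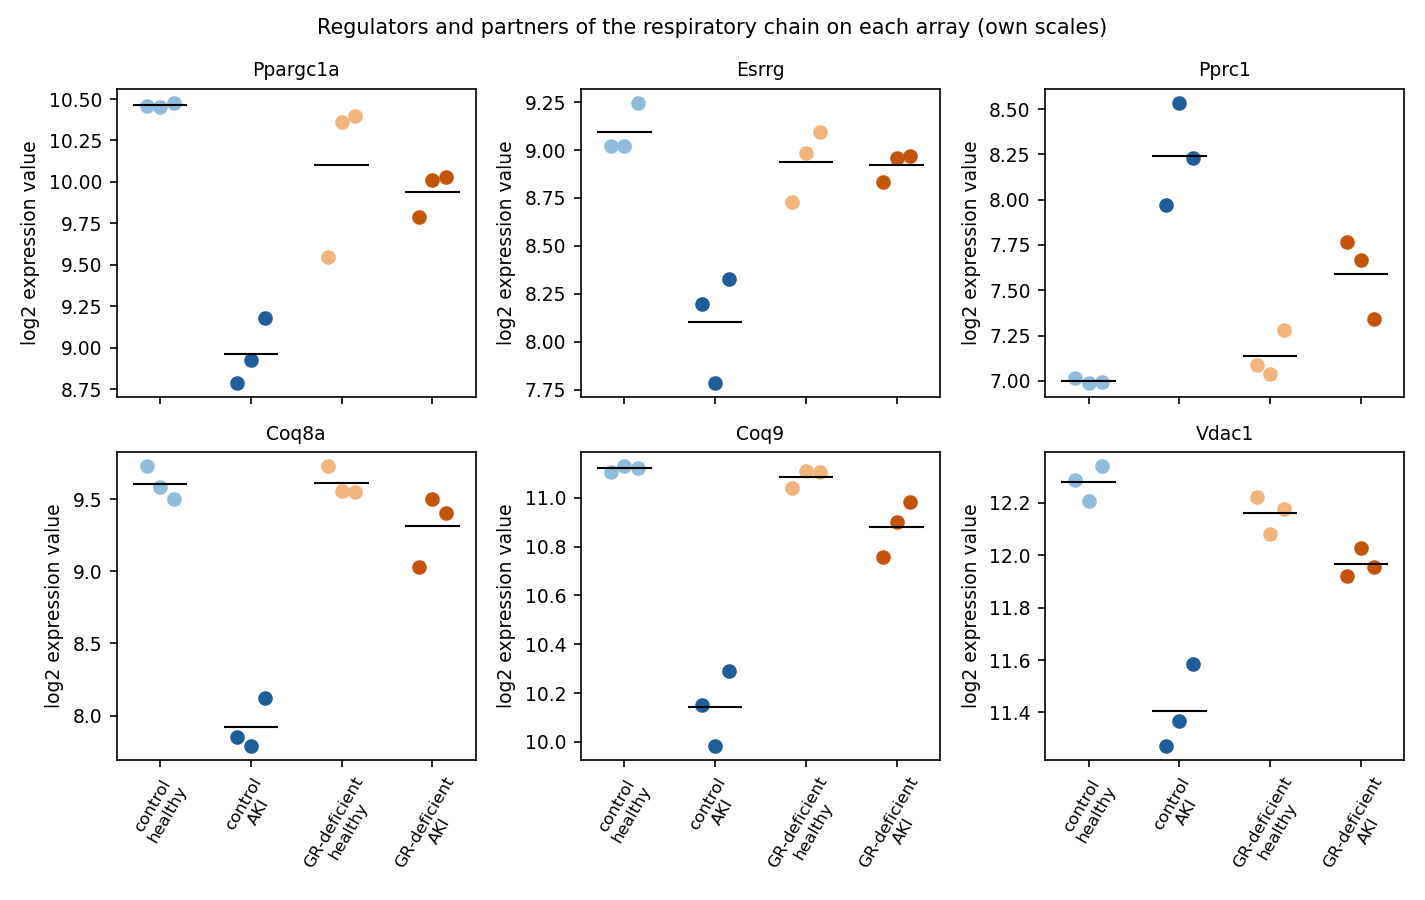
Log2 expression value on each array of genes that work with the respiratory chain or regulate it; points are arrays and lines are means of 3 arrays. Ppargc1a and Coq8a drop in control AKI and lie higher in GR-deficient AKI, while Pprc1 goes the opposite way.

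Most markers of tubule segments fell in control AKI, as most members did. In healthy mice the genotype difference had a median of -0.16 in proximal tubule markers, where 10 of 11 pointed down. It was 0.07 in loop and distal markers and 0.11 in the members, and 0 genes of these 3 lists passed there. All 11 proximal tubule markers fell in control AKI (median -1.71), their mean level going from 12.73 to 12.83 on healthy arrays to 10.88 to 11.25, and it lay at 12.15 to 12.36 in GR-deficient AKI, where 10 of the 11 were higher than in control AKI. Loop and distal markers fell for 7 of 10. In GR-deficient mice with AKI, 2 of 11 proximal tubule and 4 of 10 loop and distal markers also fell, 2 of the latter at least 2-fold, against 1.35% of all genes and 0 of 89 members. Injured tubule markers rose for 7 of 8 (and 6 of 8 in GR-deficient mice), their mean going from 7.29 to 7.36 to 11.03 to 11.08, and it lay at 8.78 to 9.61 in GR-deficient AKI. Neutrophil markers rose for 7 of 8 (mean 5.14 to 5.41 in healthy control, 6.13 to 6.60 in control AKI, 5.45 to 5.68 in GR-deficient AKI, where 6 of 8 were lower than in control AKI). Of monocyte and macrophage markers 3 of 10 rose and 1 fell, and of endothelial markers 3 of 7 rose and 2 fell. Their part in the differences of the respiratory genes was not tested. In whole cortex, fewer tubule cells and less RNA of these genes per cell cannot be told apart.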

How the data were processed

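Total RNA of renal cortex was amplified and hybridised to Affymetrix mouse gene arrays, 12 samples in 4 groups of 3. The values are log2 expression values made by the authors by robust multichip averaging (RMA). The submitters' processing notes list affy and oligo, with no version. RMA subtracts background, brings the arrays to one distribution and joins the probes of a set, which removes differences in total signal and compresses low values. The log base is not stated, and the largest values (14.73 to 14.9) lie in the range of log2. The values were not normalized again.

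Probe sets were named by the platform annotation: of 35556, 21789 had 1 symbol, 1621 several and 12146 none here. With 1 probe set per gene (the highest mean), 19938 genes remained, without a filter on dim genes. All 89 members were found in RefSeq. A model of 4 group means was fitted with limma 3.58.1 (lmFit, eBayes) in R 4.3.3, with 8 residual and 6.26 prior degrees of freedom, for 5 contrasts. The p-values are two-sided, Benjamini-Hochberg adjusted over all genes within a contrast, and the threshold is 0.05. Intervals are 95%. The fit was tested on simulated data. Members and lists were chosen with earlier results of these data known, so list counts are descriptions and no set test was run.

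Named with values were the members with the smallest p per complex for AKI in control mice (up to 4), the smallest p of each other contrast (up to 10 that passed, or 3), the member that moved least in each complex, all of complex II, the isoform groups, and up to 4 passing genes per pathway list. Ndufa6, Ndufa7, Ndufaf6, Uqcr10, Uqcr11, Cox5b, Atp5b, Atp5e and Atp5g2, and in the lists Cyc1, Slc25a4, Etfa, Idh3b, Cox15, Ecsit, Uqcc2, COX2 and the regulators, were chosen after values were seen where they lay outside that rule. Samples were not paired by replicate number in the main fit, as residuals gave no sign of pairing. The alternatives were 2 further normalizations, a filter on dim genes, means over probe sets, array weights, a variance trend, a replicate block, only the 2 groups compared, and leaving out arrays.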

Additional observations from a re-analysis of the deposited data

Results flagged for a closer look

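The response to AKI differed between the genotypes, by the test of the difference itself, for 21 of 89 members. In each of them the GR-deficient response lay above the control response. Over all genes 7.39% passed as higher and 4.06% as lower, and in the top 25% by level 19.3% passed as higher. As 78 of the 89 members lie in that top 25%, their count is only a little above the share for genes of like level. Of the 21 members, 9 passed under every alternative run, and the others lost the call without GR-deficient AKI replicate 3. Most of those others lost it under further alternatives too, Atp5pb under 13 of 20, Sdhb under 12 and Ndufb9 under 11. Only Ndufab1 and Ndufs7 lost it there alone. On the log2 scale the differences in complex I were 0.76 for Ndufs1, 0.75 for Ndufs7, 0.69 for Ndufs8 and 0.511 for Ndufs3 among the core subunits. Among its accessory subunits they were 0.715 for Ndufv3, 0.65 for Ndufab1, 0.64 for Ndufc1, 0.613 for Ndufa8 and 0.515 for Ndufb9, and the assembly factor Ndufaf3 had 0.656. In complex II they were 0.826 for Sdhc, 0.595 for Sdha, 0.589 for Sdhd and 0.469 for Sdhb. Complex III had 0.596 for Uqcrfs1 and 0.581 for Uqcrc2, and complex IV 1.21 for Cox7a1. Complex V had 0.721 for Atp5g1, 0.531 for Atp5pb, 0.509 for Atp5c1 and 0.494 for Atp5d. Adjusted p-values ran from 0.00306 to 0.0396 (limma, 3 arrays per group).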

How the results depend on the processing

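No count or median of the 5 comparisons reversed under any alternative run. The count for AKI in control mice (63) stayed within 1.5 times under all of them, and that for GR deficiency in AKI (59) under all except leaving out GR-deficient AKI replicate 3. AKI in GR-deficient mice, with 0 calls, gave 3 calls after quantile normalization, 10 after cyclic loess, 8 with only genes above the median level (83 members left), 20 with array weights and 1 with a variance trend. GR deficiency in healthy mice, with 0 calls, gave 3 with array weights, and the difference in response (21) gave 37. Both added normalizations left the median of all genes within 0.1 of its deposited-scale value. Leaving out 1 array at a time gave 56 to 67 calls with medians of -0.517 to -0.453 for AKI in control mice, 0 to 8 with -0.245 to -0.123 for AKI in GR-deficient mice, 0 with 0.0714 to 0.181 for GR deficiency in health, 39 to 74 with 0.389 to 0.477 for GR deficiency in AKI, and 9 to 26 with 0.2 to 0.339 for the difference in response. Without both arrays of narrow spread, an alternative chosen after seeing the data, the counts were 63, 0, 0, 62 and 19. Of the members called, 53 of 63, 39 of 59 and 9 of 21 passed under every alternative, and 0 changed sign.

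Residuals gave no sign that replicate numbers pair the samples. Same-numbered samples of different groups correlated at -0.41 to 0.252, with 3 of 18 pairs over 0.1. Differently numbered ones correlated at -0.354 to 0.454, with 10 of 36 pairs over 0.1. With 3 arrays a group this check is weak and cannot exclude pairing. With a replicate block the counts were 60, 0, 0, 51 and 18. The cause of these shifts was not tested. With 3 arrays per group and low genes near background, small differences can be missed.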

Other observations

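Of 14 genes of mitochondrial damage and turnover, 6 fell and 1 rose in control mice with AKI, 5 were higher in GR-deficient than in control AKI and 3 differed in response. Over all genes 15.1% fell, 13.6% rose, 10% were higher and 7.39% differed positively in response. In the top 25% by level 32% fell, 22.6% were higher and 19.3% differed positively. The 3 of 14 lie near the last of these shares. Pink1, a kinase that marks depolarised mitochondria for removal, fell from 10.77, 10.52 and 10.59 to 9.34, 9.54 and 9.86 (-1.04 ± 0.128, adjusted p = 1.87e-05, limma) and stood at 9.99, 9.93 and 10.10 in GR-deficient AKI. Mfn2, which fuses outer membranes, fell by 0.66. The gene that rose was Hspe1, the mitochondrial chaperonin cofactor (0.32 ± 0.11, adjusted p = 0.0404).

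Cox8b, the isoform known from brown fat and striated muscle, lay at 7.73 on control healthy replicate 2 and between 5.71 and 6.39 on the other 11 arrays. On the same array the brown fat genes Ucp1 (8.75) and Cidea (7.75) were also highest, against 5.29 to 6.87 and 5.24 to 6.04 elsewhere. The mean of 5 brown fat markers was 6.96 there and 5.61 to 6.09 on the other arrays. The members' median on that array was -0.00 relative to the healthy control mean, between those of the other 2 healthy control arrays, and without this array 56 members fell in control AKI.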
